A study of Aspergillus nidulans with 24 samples.

Results

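The 167 genes described here are those whose transcript level rose between 2 and 8 h on maltose in each of 4 Aspergillus nidulans strains. They were taken by rule from the 10631 genes of the table: the mean log2(FPKM + 1) of the 3 libraries at 8 h minus that of the 3 libraries at 2 h had to be at least 0.6 in AbfA, in BglC, in 1542 and in A773. FPKM is the number of sequenced fragments of a gene, scaled by its length and by the fragment total of the library. The genes were thus chosen by their measured change with time in all 24 libraries, so that change is given as a description, without a test, and a rise means here that a gene met the rule. All 167 genes also passed the filter on low values, FPKM of at least 1 in at least 3 of 24 libraries, which 9201 genes of the table passed.

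Aspergillus nidulans is a filamentous fungus used as a host for making secreted enzymes. The recombinant strains AbfA, BglC and 1542 each produce 1 foreign enzyme, an alpha-arabinofuranosidase, a beta-glucosidase and a thermophilic mannanase of family GH5, and the parental strain A773 (pyrG89;wA3;pyroA4) produces none of them. Mycelium of all 4 strains was kept for 8 or 2 h at 37 °C in minimal medium with 2% maltose, which switches on the promoter of the foreign gene; the medium for growth before that held 1% glucose. Each strain and time had biological triplicates, and mRNA of mycelium was sequenced. The labels give no number of independent transformants per strain, so a strain difference cannot be told apart from a difference between single isolates. Nor can the foreign enzyme be told apart from anything else that separates a recombinant strain from its parent, such as transformation itself. Every group, the parent included, was in the maltose medium, which also held HEPES. No group was kept on glucose.

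Maltose is a disaccharide of glucose that Aspergillus splits with alpha-glucosidases. During further hours of culture a mycelium also remodels its wall, secretes proteins that release nutrients from polymers, and builds up an extracellular matrix. One part of that matrix in Aspergillus is galactosaminogalactan, a polymer of galactose and N-acetylgalactosamine that has been studied mainly in Aspergillus fumigatus, where neighbouring genes encode enzymes that make and modify it.

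Depth, as reads assigned to genes and recovered from the FPKM steps, ran from 7140121 to 24286301 in the libraries at 8 h and from 12154722 to 32309718 in those at 2 h. The introduced genes had at least 2689 FPKM in AbfA, 5805 FPKM in BglC and 695 FPKM in 1542, and at most 0.350, 1.98 and 0.428 FPKM in the other strains. Markers of asexual development, 9 genes of the conidiophore and spore (brlA, abaA, wetA, rodA, dewA, pksP, yA, ivoA and ivoB), had a summed level of 1970 to 3788 FPKM in AbfA at 8 h, against 1316 to 1642 FPKM at 2 h. At 8 h the AbfA sum was made up mostly of rodA, a spore hydrophobin, with a mean of 2342 FPKM, against 747 FPKM at 2 h. In AbfA the regulator brlA averaged 93.5 FPKM at 8 h, against 131 FPKM at 2 h, and ivoB 307 FPKM at 8 h, against 483 FPKM at 2 h. Of the 9 markers, 6 rose from 2 to 8 h by at least 0.6 log2 units in AbfA and 1 fell that far. Of all 10631 genes, 7.57% rose and 7.12% fell that far in AbfA. By the same measure 1 marker rose and 3 fell in BglC, none rose and 4 fell in 1542, and none rose and 7 fell in A773. In BglC the sum was 85.6 to 1516 FPKM at 8 h, against 135 to 2684 FPKM at 2 h, and replicate 1 was the highest at both times. It was 592 to 796 FPKM in 1542 at 8 h, against 811 to 1716 FPKM at 2 h, and 239 to 272 FPKM in A773 at 8 h, against 1491 to 4151 FPKM at 2 h. None of these markers was among the 167 genes, and none was at 0 on average in any group. Their part in the results below was not tested.

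Some libraries stood apart. The second A773 library at 8 h lay at least 1.5 log2 units above both other libraries of its group for 8 of the 167 genes, and the first AbfA library at 2 h lay that far below both others of its group for 11. The A773 library stood that far apart, in either direction, for 4.79% of the 167 genes and 0.576% of all genes tested, and the AbfA library for 6.59% and 1.88%. When each of the 24 libraries was left out in turn, 90 of the 167 genes met the rule every time and 77 failed it at least once. Without the first AbfA library at 2 h 22 genes failed it, and without the second A773 library at 8 h 6 failed it: AN5076, AN3228, AN5385, AN7113, AN8928 and AN3230. AN5076, AN7113 and AN8928 are named because of this count, after their values were seen.

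The median change over the 167 genes was 1.20 log2 units in AbfA, 1.34 in BglC, 0.95 in 1542 and 2.03 in A773, while the median over all genes tested was 0.05 in AbfA, 0.08 in BglC, −0.01 in 1542 and 0.13 in A773. The A773 median over the 167 genes was 1.89 without its second library at 8 h. For 123 genes the largest change was in A773, and for 87 genes the smallest was in 1542; the count in A773 was 112 without that library. A change of at least 2 log2 units was seen for 22 genes in AbfA, 28 in BglC, 8 in 1542 and 85 in A773. The shares of all 10631 genes that passed 0.6 ran in the same order as these medians: 7.57% in AbfA, 11.1% in BglC, 4.5% in 1542 and 18.5% in A773, and 1.57% passed it in all 4 strains. Over all genes tested the SD of the change was 0.52 in AbfA, 0.58 in BglC, 0.49 in 1542 and 0.87 in A773. In bulk mycelium, fewer cells of a type and less RNA per cell cannot be told apart.

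**Figure D1:**
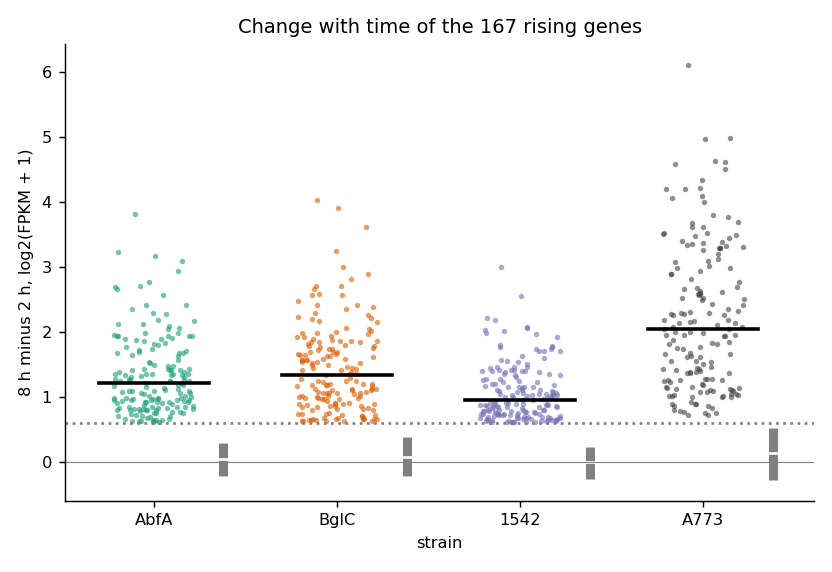
Change with time (8 h minus 2 h, log2(FPKM + 1)) of each of the 167 genes (points) by strain, with the median as a black bar; the grey bar at the right of each strain spans the quartiles of the 9201 genes tested, with a gap at their median, and the dotted line is the threshold of 0.6. The points lie lowest in 1542 (median 0.95) and highest in A773 (median 2.03).

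Levels at each time show where the strains differed. At 2 h A773 was the lowest of the 4 strains for 99 of the 167 genes, which is 59.3% of them against 20.8% of all genes tested. At 8 h it was the highest for 76 genes, 45.5% against 40.5% of all genes tested. The median of strain minus A773 over the 167 genes at 2 h was 0.43 log2 units in AbfA, 0.49 in BglC and 0.71 in 1542, and at 8 h it was −0.32, −0.27 and −0.23 in the same order of strains. 1542 was the highest strain at 2 h for 72 genes, 43.1% against 29.9% of all genes tested. These levels entered the rule, so the counts and medians describe the set that the rule chose.

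All 3 libraries at 8 h exceeded all 3 at 2 h for 150 of the 167 genes in AbfA, 151 in BglC, 144 in 1542 and 162 in A773. Of all 10631 genes, 21.3%, 22.5%, 17.6% and 32.8% had this pattern in those strains. In 123 genes the times did not overlap in any strain, a pattern that 5.29% of all genes had; 31 genes had it in 3 strains and 13 in fewer. Nothing is read from these counts, since the rule used the same values.

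Values near the threshold were close together. AN5468, AN3798 and AN4367 were just inside it, with smallest changes of 0.60, 0.61 and 0.61 log2 units. Leaving out 1 library put AN5468 under the threshold in 3 cases, AN3798 in 6 and AN4367 in 3, with smallest changes as low as 0.37, 0.48 and 0.40. AN0468, AN4927 and AN3761 were just outside, at 0.599, 0.598 and 0.598. For 54 of the 167 genes the smallest change was at least 1, and for 15 it was at least 1.5; the median smallest change was 0.84.

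Of the 167 genes, 160 could be placed in the RefSeq gene table (ASM1142v1) and 12 have a gene symbol there. AN3246, which has no symbol in the table, had the largest change in the strain where it changed least. AN3246 had 81.1, 71.1 and 43.4 FPKM at 8 h, against 4.1, 8.94 and 10.5 FPKM at 2 h in AbfA, and 34.9, 225 and 151 FPKM at 8 h, against 9.55, 13.4 and 8.65 FPKM at 2 h in BglC. It had 100.4, 176 and 80.8 FPKM at 8 h, against 5.87, 11.1 and 34.5 FPKM at 2 h in 1542, and 175, 197 and 141 FPKM at 8 h, against 18.3, 29.05 and 8.05 FPKM at 2 h in A773. Every library at 8 h lay above every library at 2 h, although the first BglC library at 8 h was far below the other two of its group. The change of AN3246 was 2.94 in AbfA, 3.24 in BglC, 2.99 in 1542 and 3.29 in A773. AN9320 was next, with a change of 2.06 in AbfA, 2.06 in BglC, 2.01 in 1542 and 3.28 in A773.

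Among the 12 genes with the largest smallest change, all 12 had no overlap between the times in any strain. Nothing is read from this count, since the 12 were chosen for large changes in the same values. AN9320 had 17.7 to 69.3 FPKM over the 12 libraries at 8 h, against 3.77 to 20.6 FPKM over the 12 libraries at 2 h. AN0661 had 123 to 337 FPKM over the 12 libraries at 8 h, against 13.6 to 88.9 FPKM over the 12 libraries at 2 h. The 8 h and 2 h ranges over all strains did not overlap for AN0661, and did for AN9320. AN8043 had 310.3 to 737 FPKM over the 12 libraries at 8 h, against 22.9 to 180.4 FPKM over the 12 libraries at 2 h. AN8733, the neighbour of AN8734 in the gene order, had 56.99 to 115 FPKM over the 12 libraries at 8 h, against 4.53 to 32.4 FPKM over the 12 libraries at 2 h. The 12 differ in which strain rose most: AN8043 changed by 1.87 in AbfA, 2.70 in BglC, 2.03 in 1542 and 4.20 in A773, whereas AN8733 changed by 3.22 in AbfA, 1.86 in BglC, 2.05 in 1542 and 2.98 in A773. AN11979 had 10.4, 6.53 and 6.6 FPKM at 8 h, against 0.571, 0.744 and 1.58 FPKM at 2 h in 1542, and 30.6, 41.9 and 34.3 FPKM at 8 h, against 0.217, 0.134 and 0.117 FPKM at 2 h in A773. A773 was thus the highest of these groups at 8 h and the lowest at 2 h. AN8913 changed by 1.94 in AbfA, 2.41 in BglC, 1.78 in 1542 and 3.33 in A773, and AN9204 by 2.66 in AbfA, 1.77 in BglC, 2.08 in 1542 and 2.32 in A773. AN8734 rose by 2.28 in AbfA and 2.14 in A773, and AN8372 by 2.35 in AbfA and 2.17 in A773.

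pmeA (AN3390) encodes a pectin methylesterase, which removes methyl groups from pectin. It had 14.97, 18.2 and 10.4 FPKM at 8 h, against 2.94, 1.53 and 1.3 FPKM at 2 h in AbfA, and 17.9, 19.97 and 24.1 FPKM at 8 h, against 3.4, 2.66 and 6.14 FPKM at 2 h in BglC. In 1542 it had 27.6, 18.5 and 16.6 FPKM at 8 h, against 5.18, 4.59 and 5.8 FPKM at 2 h, and in A773 32.8, 34.8 and 52.4 FPKM at 8 h, against 3.8, 2.17 and 1.3 FPKM at 2 h. The times did not overlap in any strain, and A773 held the highest values at 8 h. The change of pmeA was 2.42 in AbfA, 2.14 in BglC, 1.795 in 1542 and 3.62 in A773.

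**Figure D2:**
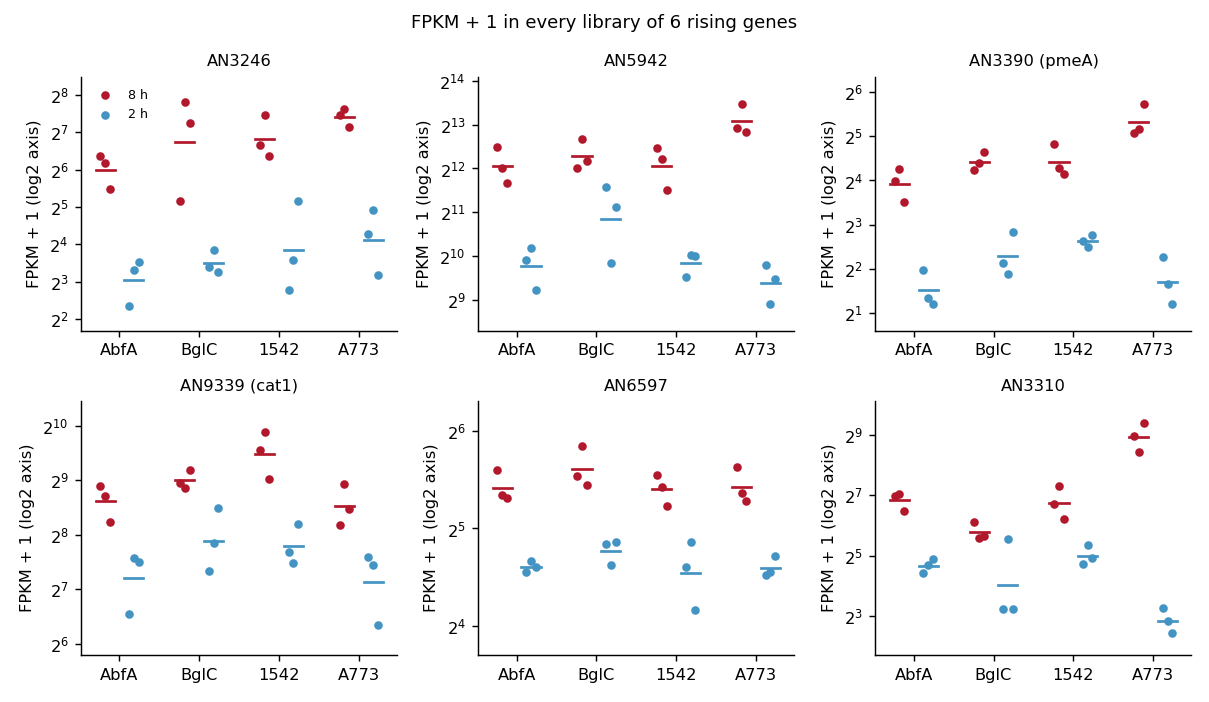
FPKM + 1 on a log2 axis in each of the 24 libraries for AN3246, AN5942, pmeA, cat1, AN6597 and AN3310; points are libraries, bars are the mean of log2 values, with 8 h in red and 2 h in blue for each strain. AN6597 changed by nearly the same amount in all 4 strains, while AN3310 changed by 1.76 log2 units in 1542 and 6.11 in A773.

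Of 5 neighbouring genes, 4 met the rule with all libraries in. agd3 (AN2954) and gtb3 (AN2955), known in A. fumigatus as a deacetylase and a glycosyltransferase of galactosaminogalactan synthesis, were members, and so were the nearby AN2951 and AN2952, which carry no symbol in the table. The stretch AN2951 to AN2955 was picked out after these values were seen. agd3 had 89.05, 77.4 and 62.3 FPKM at 8 h, against 18.1, 38.6 and 40.5 FPKM at 2 h in AbfA, and 169.6, 143 and 191 FPKM at 8 h, against 52.7, 71.99 and 89.2 FPKM at 2 h in BglC. In 1542 agd3 had 214, 301 and 155 FPKM at 8 h, against 72.6, 93.8 and 79.5 FPKM at 2 h, and in A773 124, 247 and 293 FPKM at 8 h, against 46.1, 64.2 and 34.4 FPKM at 2 h. The times did not overlap in any strain, with the lowest values at 8 h in AbfA. Its change was 1.28 in AbfA, 1.25 in BglC, 1.39 in 1542 and 2.13 in A773.

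gtb3 had 32.3, 31.2 and 21.1 FPKM at 8 h, against 9.86, 13.8 and 12.1 FPKM at 2 h in AbfA, and 47.2, 53.7 and 58.4 FPKM at 8 h, against 25.3, 26.2 and 40.6 FPKM at 2 h in BglC. In 1542 gtb3 had 58.3, 67.4 and 42.1 FPKM at 8 h, against 25.99, 31.1 and 24.99 FPKM at 2 h, and in A773 52.6, 60.4 and 75.8 FPKM at 8 h, against 18.1, 24.7 and 15.5 FPKM at 2 h. Again no values overlapped between the times within a strain, and AbfA was lowest at both times. AN2951 changed by 2.12 in AbfA, 0.62 in BglC, 1.03 in 1542 and 2.49 in A773; its times overlapped in BglC, where it had 110.4, 178 and 157 FPKM at 8 h, against 70.6, 81.3 and 146 FPKM at 2 h. AN2951 did not meet the rule when the second or the third BglC library at 8 h (BglC change 0.48 and 0.57) or the first or second at 2 h (0.41 and 0.52) was left out. AN2952 changed by 1.10 in AbfA, 0.93 in BglC, 1.02 in 1542 and 1.62 in A773. AN2953, which lies between AN2952 and agd3, was no member: it changed by 0.64 in AbfA, 0.24 in BglC, 0.60 in 1542 and 0.46 in A773, at a mean level of 487 ± 35.7 FPKM at 8 h, against 354 ± 23.04 FPKM at 2 h (SD, n = 3) in A773.

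**Figure D3:**
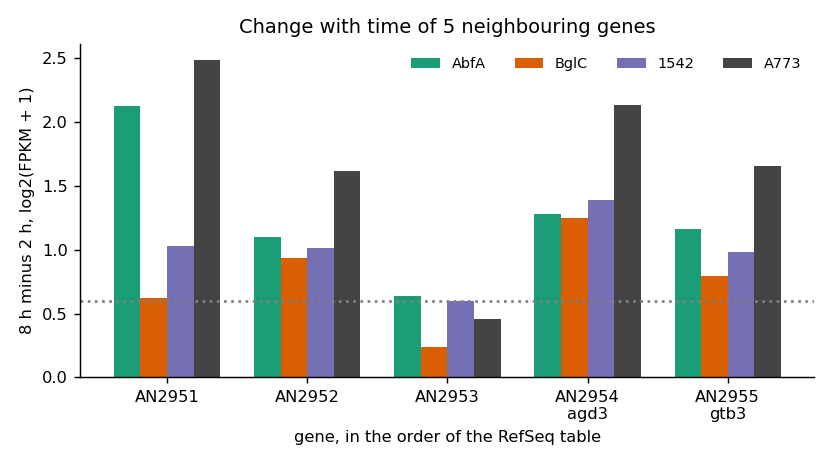
Change with time (8 h minus 2 h, log2(FPKM + 1)) of AN2951, AN2952, AN2953, agd3 and gtb3 in the 4 strains; the dotted line is the threshold of 0.6. AN2953 falls below it in BglC (0.24) and A773 (0.46), while both neighbouring pairs lie above it in all 4 strains, AN2951 in BglC by little (0.62), and it falls below when any 1 of 4 BglC libraries is left out.

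Peptidases with a symbol were dppV and sxa2. dppV (AN2572), a dipeptidyl-peptidase, had 52.7, 45.5 and 46.7 FPKM at 8 h, against 9.77, 32.3 and 31.7 FPKM at 2 h in AbfA, and 76.3, 79.6 and 89.1 FPKM at 8 h, against 17.6, 40.1 and 26.4 FPKM at 2 h in BglC. It had 31.9, 60.04 and 39.4 FPKM at 8 h, against 19.4, 12.3 and 14.7 FPKM at 2 h in 1542, and 52.6, 58.5 and 92.6 FPKM at 8 h, against 16.7, 15.9 and 15.1 FPKM at 2 h in A773. The first AbfA library at 2 h stood below the others of its group. Its change was 1.11 in AbfA, 1.58 in BglC, 1.42 in 1542 and 1.99 in A773, and in AbfA it was 0.58 without that library, under the threshold. sxa2 (AN2555), named after a carboxypeptidase of fission yeast, changed by 1.28 in AbfA, 1.52 in BglC, 0.77 in 1542 and 2.51 in A773 and overlapped between the times in 1542, where it had 185, 141 and 165 FPKM at 8 h, against 77.8, 68.98 and 159 FPKM at 2 h; without the second 1542 library at 2 h its change there was 0.54, under the threshold.

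cat1 (AN9339), a catalase that breaks down hydrogen peroxide, was the single member of the 9 listed oxidative stress genes. It averaged 397 ± 88.4 FPKM at 8 h, against 154 ± 53.5 FPKM at 2 h in AbfA and 513 ± 62.2 FPKM at 8 h, against 249 ± 101 FPKM at 2 h in BglC (SD, n = 3). It averaged 739 ± 216 FPKM at 8 h, against 224 ± 59.4 FPKM at 2 h in 1542 and 376 ± 100.1 FPKM at 8 h, against 148 ± 59.4 FPKM at 2 h in A773 (SD, n = 3). The single values were 755, 946 and 516 FPKM at 8 h, against 204, 178 and 291 FPKM at 2 h in 1542, the strain with the highest levels at 8 h. No values overlapped between the times in any strain, and the change was 1.41 in AbfA, 1.11 in BglC, 1.70 in 1542 and 1.40 in A773.

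cox5b (AN4525), a subunit of cytochrome c oxidase, and coq4 (AN4757), needed for ubiquinone synthesis, belong to the respiratory chain and its cofactor. cox5b had 1595 to 2375 FPKM over the 12 libraries at 8 h, against 777 to 1493 FPKM over the 12 libraries at 2 h. Its times did not overlap within any strain, and it changed by 0.82 in AbfA, 0.64 in BglC, 0.78 in 1542 and 1.04 in A773. coq4 had 135 to 192 FPKM over the 12 libraries at 8 h, against 60.8 to 147 FPKM over the 12 libraries at 2 h, and changed by 0.84 in AbfA, 0.83 in BglC, 0.70 in 1542 and 1.22 in A773. Both rises were among the smaller ones of the set, and the highest coq4 value at 2 h, in the third 1542 library, was still below the 8 h values of 1542. Left-out libraries took both under the threshold: cox5b changed by 0.55 in BglC without the second BglC library at 2 h, and coq4 by 0.54 in 1542 without the second 1542 library at 2 h.

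aah1 (AN6078) is an adenine deaminase in yeast, where it acts in purine salvage. It had 23.7, 26.99 and 24.1 FPKM at 8 h, against 10.9, 12.6 and 13.8 FPKM at 2 h in AbfA, and 23.6, 28.5 and 20.9 FPKM at 8 h, against 5.93, 5.96 and 5.05 FPKM at 2 h in BglC. In 1542 it had 16.3, 16.00 and 21.3 FPKM at 8 h, against 9.72, 12.1 and 11.3 FPKM at 2 h, and in A773 98.7, 49.6 and 73.5 FPKM at 8 h, against 9.27, 6.65 and 3.91 FPKM at 2 h. No values overlapped between the times, and A773 at 8 h lay above every other group. The change was 0.95 in AbfA, 1.92 in BglC, 0.64 in 1542 and 3.31 in A773, and in 1542 it was 0.51 without the third library at 8 h and 0.56 without the first at 2 h, both under the threshold.

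zrfC (AN1833) is a zinc transporter in A. fumigatus. In AbfA it had 2.47, 2.95 and 2.21 FPKM at 8 h, against 0.832, 0.878 and 0.674 FPKM at 2 h, and in BglC 2.64, 2.74 and 4.15 FPKM at 8 h, against 0.574, 1.45 and 0.523 FPKM at 2 h. It had 12.5, 13.6 and 11.2 FPKM at 8 h, against 4.59, 3.32 and 4.36 FPKM at 2 h in 1542, and 2.99, 5.2 and 3.66 FPKM at 8 h, against 0.571, 0.192 and 0.42 FPKM at 2 h in A773. The 1542 libraries were the highest at both times, and no times overlapped within a strain. sfh5 (AN8233), a phosphatidylinositol transfer protein in yeast, had 242 to 525 FPKM over the 12 libraries at 8 h, against 90.2 to 188 FPKM over the 12 libraries at 2 h, and changed by 1.43 in AbfA, 1.06 in BglC, 1.45 in 1542 and 1.43 in A773. aspf13 (AN6273) had 99.3, 94.8 and 51.05 FPKM at 8 h, against 19.2, 25.7 and 16.2 FPKM at 2 h in 1542, and 769.5, 583 and 939.5 FPKM at 8 h, against 57.2, 65.1 and 73.4 FPKM at 2 h in A773; its change was 2.71 in AbfA, 1.19 in BglC, 1.92 in 1542 and 3.51 in A773, and in BglC 0.55, under the threshold, without the second BglC library at 2 h.

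The highest levels at 8 h belonged to AN5942, AN1812, AN4722, cox5b and AN7625. AN5942 averaged 5689 FPKM over the 12 libraries at 8 h and 1145 FPKM over the 12 at 2 h, and ranked 13 among all genes at 8 h. It had 5732, 4152 and 3252 FPKM at 8 h, against 959, 1159 and 597 FPKM at 2 h in AbfA, and 4135, 6558 and 4632 FPKM at 8 h, against 3042, 918 and 2207 FPKM at 2 h in BglC. In 1542 it had 5623, 4765 and 2892 FPKM at 8 h, against 735, 1033 and 1018 FPKM at 2 h, and in A773 7747, 11432 and 7347 FPKM at 8 h, against 884, 477 and 710.4 FPKM at 2 h. The second BglC library at 2 h was the lowest of its group, and no values overlapped between the times within any strain. AN1812 averaged 3635 FPKM at 8 h and 1384 FPKM at 2 h. AN4722 averaged 1948 FPKM at 8 h and 541 FPKM at 2 h, with overlapping times in 1542. AN7625 averaged 1502 FPKM at 8 h and 768 FPKM at 2 h; without the first AbfA library at 2 h its change in AbfA was 0.41, and without the first 1542 library at 2 h its change in 1542 was 0.55, both under the threshold.

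As a whole the set had a median mean level of 40.5 FPKM, against 26.4 FPKM over all genes tested. The median coding length was 1318.5 bases for the 146 of the 167 genes with a length recovered from the FPKM steps, against 1308 bases over the genes tested. Neither measure entered the rule directly, although the 1 added to FPKM shrinks the changes of low genes.

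Genes differed in how evenly they rose over the strains. AN6597 was the most even, with changes of 0.81 in AbfA, 0.84 in BglC, 0.86 in 1542 and 0.83 in A773. Its levels were 36.6 to 56.5 FPKM over the 12 libraries at 8 h, against 16.9 to 28.03 FPKM over the 12 libraries at 2 h. AN3798 and AN5731 were next, with spans between strains of 0.19 and 0.24 log2 units; AN3798 overlapped between the times in BglC. The widest span was that of AN3310, which changed by 2.16 in AbfA, 1.77 in BglC, 1.76 in 1542 and 6.11 in A773. AN3310 had 67.7, 47.04 and 49.03 FPKM at 8 h, against 8.34, 46.2 and 8.43 FPKM at 2 h in BglC, and 507, 345 and 671 FPKM at 8 h, against 8.52, 6.09 and 4.36 FPKM at 2 h in A773. A773 at 8 h was the highest group and at 2 h the lowest on average, and the second BglC library at 2 h came close to the BglC values at 8 h. AN5053 changed by 0.66 in AbfA, 1.01 in BglC, 0.75 in 1542 and 4.57 in A773, with an AbfA change of 0.47 without the second AbfA library at 8 h and 0.55 without the third at 2 h. AN6411 changed by 1.42 in AbfA, 2.29 in BglC, 0.90 in 1542 and 4.63 in A773, so both also changed most in A773.

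Some members were next to each other in the gene order. Of the 160 placed members, 28 had another member as their direct neighbour in the RefSeq order (17.5%), compared with 234 of 8503 placed genes outside the set (2.75%). They formed 13 runs, of which 11 held 2 genes and 2 held 3 genes. A read count that ignores strand would give part of the reads of a gene to an overlapping neighbour; the libraries are stranded, and the setting used to count is not given in the sources used here.

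The first run of 3 is AN9156, AN9157 and AN9158. AN9156 had 10.4 to 22.2 FPKM over the 12 libraries at 8 h, against 2.19 to 6.62 FPKM over the 12 libraries at 2 h, and changed by 1.63 in AbfA, 1.98 in BglC, 0.90 in 1542 and 2.52 in A773. AN9157 had 57.03 to 106 FPKM over the 12 libraries at 8 h, against 18.9 to 41.6 FPKM over the 12 libraries at 2 h, and changed by 1.02 in AbfA, 1.81 in BglC, 0.69 in 1542 and 1.75 in A773. AN9158 changed by 0.84 in AbfA, 1.42 in BglC, 0.65 in 1542 and 2.28 in A773; its times overlapped in AbfA, with 50.8, 51.9 and 44.96 FPKM at 8 h, against 12.9, 48.6 and 30.98 FPKM at 2 h. Without the first AbfA library at 2 h the AbfA change of AN9158 was 0.33, and without the first or the third 1542 library at 8 h or the first at 2 h its 1542 change was 0.59, 0.50 and 0.50, all under the threshold. All 3 changed least in 1542, and AN9156 and AN9158 changed most in A773.

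The second run is AN3228, AN3229 and AN3230, all low in A773. AN3228 had 17.6, 17.7 and 4.94 FPKM at 8 h, against 0.289, 6.13 and 4.76 FPKM at 2 h in AbfA, and 0, 3.46 and 0.182 FPKM at 8 h, against 0.0742, 0 and 0 FPKM at 2 h in A773. AN3229 had 24.3, 20.6 and 7.78 FPKM at 8 h, against 1.57, 5.12 and 4.01 FPKM at 2 h in AbfA, and 1.39, 10.7 and 2.46 FPKM at 8 h, against 0.545, 0.36 and 0.473 FPKM at 2 h in A773. AN3230 had 5.08, 6.63 and 1.12 FPKM at 8 h, against 0.182, 1.68 and 1.09 FPKM at 2 h in AbfA, and 0.244, 1.97 and 0.301 FPKM at 8 h, against 0.0216, 0.03 and 0.00875 FPKM at 2 h in A773. In A773 the second library at 8 h was far above the others for each of them. Without it the A773 change was 0.09 for AN3228 and 0.32 for AN3230, both under the threshold, and 0.98 for AN3229. The 1542 changes also depended on single libraries: without the third 1542 library at 8 h that of AN3228 was 0.47 and that of AN3230 0.35, and without the first at 8 h or the first at 2 h that of AN3230 was 0.52 and 0.53.

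The genes of known function in 23 lists, from starch use to conidiation, made up little of the set. Of 181 listed genes 4 were members (2.21%), near the 1.57% of the whole table, and 19 lists had none. Besides cat1, these were AN9470 in the purine use list, AN1967 in the sexual development list and AN7805 in the sterigmatocystin list, which were entered there by identifier. AN9470 had 595 to 1079 FPKM over the 12 libraries at 8 h, against 301 to 772 FPKM over the 12 libraries at 2 h, and changed by 1.21 in AbfA, 1.00 in BglC, 0.67 in 1542 and 0.74 in A773; its 1542 change was 0.56 without the first 1542 library at 2 h and 0.595 without the third at 8 h. AN1967 changed by 1.09 in AbfA, 1.24 in BglC, 1.54 in 1542 and 3.35 in A773, with overlapping times in AbfA. AN7805 changed by 0.73 in AbfA, 0.66 in BglC, 0.73 in 1542 and 1.37 in A773, with overlapping times in BglC and 1542. AN7805 fell under the threshold in 5 left-out cases: at 0.35 and 0.49 in BglC without the first library at 8 h or the first at 2 h, at 0.57 and 0.52 in 1542 without the first at 8 h or the second at 2 h, and at 0.55 in AbfA without the third at 2 h.

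Counted with the members, the genes of these lists moved less evenly. Of all 10631 genes, the shares that rose by at least 0.6 were those given above, and the shares that fell by at least 0.6 were 7.12% in AbfA, 7.72% in BglC, 8.78% in 1542 and 11.6% in A773. In the purine use list, which covers uptake and breakdown of purines, 4 of 6 genes reached 0.6 in AbfA, 4 in BglC, 1 in 1542 and 5 in A773, and none fell by that much in any strain. In the oxidative stress list 1 of 9 genes rose and 2 fell in AbfA, 3 rose and 1 fell in BglC, 1 rose and 2 fell in 1542, and 1 rose and 1 fell in A773. In the sexual development list 3 of 10 rose and none fell in AbfA, 1 rose and 3 fell in BglC, 3 rose and 1 fell in 1542, and 1 rose and 5 fell in A773. The oxidative stress and sexual development lists thus held changes in both directions in BglC, 1542 and A773. However, the 1 rise of the oxidative stress list in AbfA, 1542 and A773 was that of the member cat1. The 1 rise of the sexual development list in A773 was that of AN1967, and that of the purine use list in 1542 was that of AN9470. Of the 15 sterigmatocystin genes, 2 rose and 1 fell in AbfA, and 1 rose and 6 fell in BglC. In 1542 1 rose and 2 fell, and in A773 1 rose and 5 fell. The gene that rose in BglC, 1542 and A773 was the member AN7805. Only 12 of these 15 genes passed the filter on low values. In BglC at 8 h AN7816 had 6.10, 0.408 and 0.239 FPKM and AN7812 had 5.17, 0.0755 and 0.0295 FPKM. Low levels and the first BglC library at 8 h thus weighed on such counts. Of the 8 starch and maltose genes none was a member; 1 rose and 1 fell in AbfA, 1 rose and 2 fell in BglC, 1 rose and 1 fell in 1542, and none rose and 6 fell in A773.

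The level of each gene averaged over both times was compared between each recombinant strain and A773, a contrast that the change with time did not fix directly. It is made from the same levels that entered the rule, and the 1 added to FPKM shrinks the changes of low genes. The shares of the 167 genes called therefore describe the chosen set, and the part of the rule in them was not tested. The fit was made with limma over all 9201 genes, with Benjamini-Hochberg adjustment at 0.05; the 3 comparisons share the A773 libraries, and the p-values measure the spread between these biological triplicates only. In AbfA 48 of the 167 genes were higher and 33 lower than in A773, where 19.5% of all genes tested were higher and 20.3% lower. In BglC 39 were higher and 22 lower, where 10.9% were higher and 29.7% lower. With the libraries scaled by the median of ratios the BglC counts were 52 and 12, against 15.7% and 16.2% of all genes tested. In 1542 60 were higher and 25 lower, where 17.4% were higher and 20.8% lower. As shares of the 167 genes, the higher ones came to 28.7% in AbfA, 23.4% in BglC and 35.9% in 1542. The lower ones came to 19.8% in AbfA, 13.2% in BglC and 15.0% in 1542. The median difference over the 167 genes was −0.01 log2 units in AbfA, 0.09 in BglC and 0.14 in 1542. Over all genes tested it was −0.02, −0.14 and −0.03. Of the 135 genes that fell by at least 0.6 in every strain, 44.4% were higher in AbfA, 11.9% in BglC and 22.2% in 1542. The shares of those 135 genes called lower were 5.93%, 23.0% and 11.9% in the same order.

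**Figure D4:**
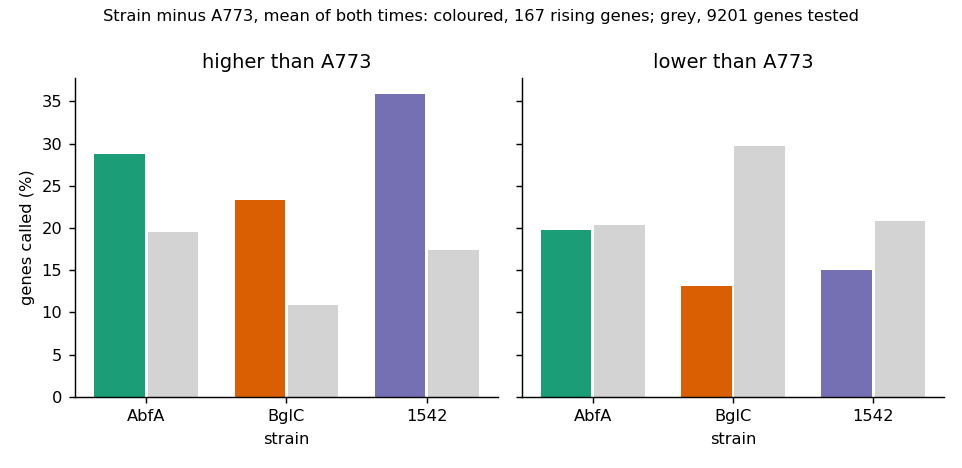
Percent of genes called higher (left) or lower (right) than in A773 in the mean of both times, for the 167 genes (coloured bars) beside the 9201 genes tested (grey bars), in AbfA, BglC and 1542. The coloured bars exceed the grey ones for genes called higher, with 35.9% against 17.4% in 1542. The shares called lower in AbfA are 19.8% and 20.3%. The levels at both times entered the rule, so the coloured bars describe the chosen set.

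Averaged over the times, the genes of the AN2951 to AN2955 stretch were lower in AbfA than in A773. The difference of agd3 was −1.03 ± 0.23 (SE; adjusted p = 0.00207), that of gtb3 was −0.89 ± 0.15 (SE; adjusted p = 0.00025), and that of AN2953 was −0.78 ± 0.08 (SE; adjusted p = 2.55e-06). AN2951 differed by −0.99 ± 0.23 (SE; adjusted p = 0.00266) and AN2952 by −0.52 ± 0.12 (SE; adjusted p = 0.00216). In BglC none of the 5 passed the test, and the differences ran from 0.01 for AN2953 to 0.57 for AN2951. In 1542 AN2951 was higher, at 1.02 ± 0.23 (SE; adjusted p = 0.00218), and the other 4 did not pass.

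Some genes with symbols passed the test in 1 or 2 of the strains. aspf13 was lower in 1542, at −2.45 ± 0.28 (SE; adjusted p = 4.77e-06), the lowest value among the 167 genes in that comparison, and lower in AbfA, at −1.17 ± 0.28 (SE; adjusted p = 0.00296). zrfC was higher in 1542, at 1.67 ± 0.14 (SE; adjusted p = 1.57e-07), and its differences in AbfA (−0.05) and BglC (0.07) did not pass. cat1 was higher in 1542, at 0.81 ± 0.25 (SE; adjusted p = 0.0145); its difference in BglC was 0.62 ± 0.25 (SE; adjusted p = 0.0514), which did not pass. sfh5 was lower in AbfA, at −0.63 ± 0.11 (SE; adjusted p = 0.000371), and in 1542, at −0.54 ± 0.11 (SE; adjusted p = 0.00132). aah1 was lower in BglC, at −0.83 ± 0.16 (SE; adjusted p = 0.000734), and in 1542, at −0.61 ± 0.16 (SE; adjusted p = 0.00608). pmeA was lower in AbfA, at −0.80 ± 0.21 (SE; adjusted p = 0.00508), and sxa2 was higher in BglC, at 0.91 ± 0.26 (SE; adjusted p = 0.01), and in 1542, at 0.69 ± 0.26 (SE; adjusted p = 0.0405). The 1542 call of sxa2 was lost in 6 left-out cases, with adjusted p = 0.0704 to 0.127: the first or the third 1542 library at 8 h, the third 1542 library at 2 h, the first A773 library at 8 h, or the second or the third A773 library at 2 h. dppV, coq4 and cox5b passed in no strain; the differences of cox5b ran from −0.24 in AbfA to 0.16 in 1542.

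The largest positive differences in AbfA and BglC were those of AN7200. AN7200 had 243, 191 and 194 FPKM at 8 h, against 7.42, 16.7 and 21.6 FPKM at 2 h in AbfA, and 50.5, 136 and 117 FPKM at 8 h, against 5.97, 24.1 and 12.97 FPKM at 2 h in BglC. In 1542 it had 52.1, 14.1 and 93.3 FPKM at 8 h, against 8.58, 21.6 and 18.6 FPKM at 2 h, and in A773 20.04, 84.6 and 10.05 FPKM at 8 h, against 0.879, 0.326 and 0.32 FPKM at 2 h. A773 at 2 h lay below every other group, and its second library at 8 h stood above the other two. The difference from A773 was 3.14 ± 0.48 (SE; adjusted p = 9.34e-05) in AbfA and 2.49 ± 0.48 (SE; adjusted p = 0.000663) in BglC, and 3.56 and 2.90 without that library. AN3225 was also higher, at 2.58 ± 0.33 (SE; adjusted p = 1.69e-05) in AbfA and 1.88 ± 0.33 (SE; adjusted p = 0.000358) in BglC, as was AN5385 in BglC, at 1.90 ± 0.43 (SE; adjusted p = 0.00213). In AbfA AN3228 followed, at 2.37 ± 0.43 (SE; adjusted p = 0.000414). The sizes of these low genes moved with the settings while the calls held: pseudocounts of 0.1 and 5 gave 4.45 and 1.12 for AN3228 in AbfA, and voom on recovered reads gave 5.10. For AN3225 the settings other than left-out libraries gave 1.40 to 3.84 in AbfA and 0.92 to 3.22 in BglC, and a pseudocount of 5 gave 1.66 for AN7200 in BglC. AN3225 and AN5385 also failed the rule on time without single libraries: AN3225 in 5 cases, with a change as low as 0.29 without the third 1542 library at 2 h, and AN5385 in 6, with one as low as 0.03 without the third 1542 library at 8 h.

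Other members were lower. In AbfA AN8963 was lower, at −1.40 ± 0.39 (SE; adjusted p = 0.00781), AN3246 at −1.24 ± 0.42 (SE; adjusted p = 0.0268) and AN0362 at −1.19 ± 0.20 (SE; adjusted p = 0.000236). In BglC AN11152 was lower, at −1.59 ± 0.17 (SE; adjusted p = 3.98e-06), and it had 29.3, 25.2 and 25.8 FPKM at 8 h, against 11.7, 15.1 and 12.4 FPKM at 2 h in BglC, and 198, 199.9 and 259.7 FPKM at 8 h, against 16.3, 13.5 and 15.4 FPKM at 2 h in A773. AN3310 in BglC, at −0.99 ± 0.31 (SE; adjusted p = 0.0174), and AN11979, at −0.94 ± 0.26 (SE; adjusted p = 0.00842), were the next lowest. In 1542 AN11121 was lower, at −2.05 ± 0.31 (SE; adjusted p = 8.21e-05), and AN3042 at −1.87 ± 0.24 (SE; adjusted p = 2.22e-05). AN11121 had 13.3, 10.7 and 9.99 FPKM at 8 h, against 5.59, 7.53 and 4.64 FPKM at 2 h in 1542, and 167, 186 and 133 FPKM at 8 h, against 12.6, 6.94 and 5.31 FPKM at 2 h in A773. Its BglC change with time was 0.58 without the first BglC library at 2 h, and that of AN8963 was 0.48 without the second BglC library at 8 h, both under the threshold. The call of AN3246 was lost without the second A773 library at 2 h (adjusted p = 0.0786), the first AbfA library at 2 h (0.0611) or the third AbfA library at 8 h (0.0666). That of AN3310 was lost without the third BglC library at 2 h (adjusted p = 0.0579).

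The widest strain differences among the 167 genes lay in 1542. AN8308 had 3009.7, 2964 and 4201 FPKM at 8 h, against 1501, 1309 and 512 FPKM at 2 h in 1542, and 48.6, 908 and 75.5 FPKM at 8 h, against 3.46, 5.89 and 6.63 FPKM at 2 h in A773. AN11702 had 1608, 1801 and 1829 FPKM at 8 h, against 611, 657 and 340.2 FPKM at 2 h in 1542, and 66.4, 1175 and 101 FPKM at 8 h, against 6.34, 5.35 and 4.68 FPKM at 2 h in A773. AN8366 had 405, 464 and 457 FPKM at 8 h, against 236, 231 and 103 FPKM at 2 h in 1542, and 5.82, 169 and 13.5 FPKM at 8 h, against 3.11, 1.84 and 0.478 FPKM at 2 h in A773. The 1542 values lay above those of AbfA and BglC at both times, and in A773 the second library at 8 h stood far above the other two for all 3 genes. The differences from A773 were 5.91 ± 0.54 (SE; adjusted p = 4.57e-07) for AN8308, 5.11 ± 0.57 (SE; adjusted p = 3.61e-06) for AN8366 and 4.73 ± 0.47 (SE; adjusted p = 1.16e-06) for AN11702. Without that A773 library they were 6.55, 5.79 and 5.36, and the A773 changes with time were 3.32, 1.95 and 3.69, against 4.62, 3.31 and 4.96 with it. In AbfA the 3 genes were also higher, at 1.64, 1.58 and 1.27 for AN8308, AN8366 and AN11702 (adjusted p = 0.021, 0.0323 and 0.0387). Without the second A773 library at 8 h the AN11702 difference was 1.91. The AbfA call of AN8308 was lost without the first or the third A773 library at 8 h or the second AbfA library at 2 h (adjusted p = 0.0506 to 0.0697). That of AN8366 was lost without any 1 of 7 libraries (0.0519 to 0.107): the first AbfA library at 8 h, the second and the third AbfA library at 2 h, the first and the third A773 library at 8 h, and the second and the third A773 library at 2 h. The call of AN11702 was lost without any of these 7 or without the second AbfA library at 8 h (0.0559 to 0.126). None of the 3 passed in BglC, at 0.09, −0.21 and −0.32. The BglC changes with time of AN8366 and AN8308 were −0.05 and 0.52 without the first BglC library at 2 h, and that of AN8366 was 0.39 without the second BglC library at 8 h, so neither gene met the rule then.

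**Figure D5:**
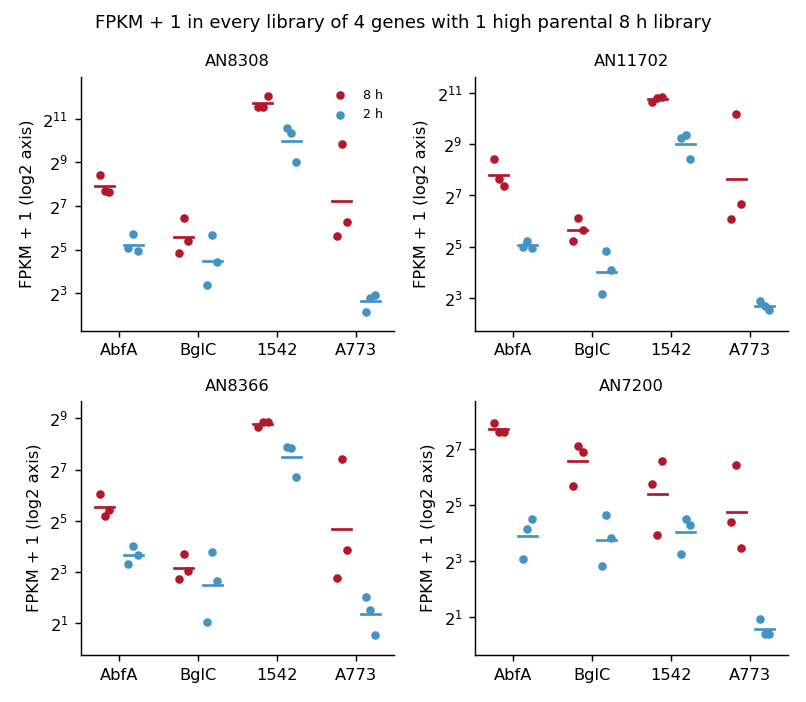
FPKM + 1 on a log2 axis in each of the 24 libraries for AN8308, AN11702, AN8366 and AN7200, with 8 h in red and 2 h in blue; bars are the mean of log2 values. In A773 at 8 h one library lies far above the other two for each gene (908 FPKM against 48.6 and 75.5 FPKM for AN8308).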

How the data were processed

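The authors deposited FPKM values for 10631 genes in 24 libraries, 3 for each strain and time, made with a stranded mRNA kit per the labels' protocols. Tools listed without roles in the submitters' processing notes are HTSeq 0.6.0, DESeq2, SAMtools 0.1.18, bcl2fastq 1.8.4 and FastQC; the sources used here do not give the aligner, build or annotation. From the deposited FPKM, log2(FPKM + 1) was computed, which understates fold changes of low genes. Genes reaching an FPKM of 1 in 3 or more libraries were tested with limma 3.58.1 in R 4.3.3 (trend, Benjamini-Hochberg adjustment) on 8 groups; the contrast was the mean of both times, strain minus A773. The fit was also run on simulated reads, independent between libraries, with the same spread setting for every gene and no library standing apart. That run cannot show how the fit handles the libraries that stood apart here. Whole reads were recovered from the FPKM steps for 10631 of 10631 genes (tolerance 0.02); they gave depths, coding lengths (8242 of 8260 a multiple of 3) and a voom fit. Replicates differed beyond counting noise (chi-square per degree of freedom 18.6 to 215).

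Same-numbered libraries of a recombinant strain and A773 at the same time did not deviate together (correlations −0.350 to 0.268), so the numbers were not taken as pairs. The recombinant strains were not compared with each other in this way. Same-numbered BglC libraries at 8 h and 2 h did deviate together (0.154 to 0.589). The RefSeq table (ASM1142v1) held 9941 of the identifiers and gave names and gene order. List entries were matched by symbol or identifier (187 of 197). Genes named are the 12 with the largest smallest change, those with a symbol, list members, those next to the threshold, the 3 highest and 3 lowest called per strain, the 3 widest and 3 narrowest spans, the 5 highest levels and runs of 3 neighbours. The 167 genes and the lists were chosen with earlier results of these data known. Alternatives changed the pseudocount, filter, scaling, block, trend or set of libraries.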

Additional observations from a re-analysis of the deposited data

How the results depend on the processing

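Counts of genes called over both times were 3655 in AbfA, 3739 in BglC and 3519 in 1542. Leaving out 1 library at a time gave 2956 to 4062, 2977 to 4276 and 2854 to 3830 in those strains, and the counts among the 167 genes were 40 to 60 higher and 28 to 36 lower in AbfA, 33 to 47 and 17 to 25 in BglC, and 48 to 62 and 20 to 27 in 1542. The 22 genes of the set called lower in BglC became 12 with median-of-ratios scaling and 6 with voom on recovered reads. Scaling moved the median BglC difference over all genes tested to −0.03, against −0.14 as deposited, and the split of BglC calls to 1441 higher and 1491 lower, against 1006 and 2733. With the replicate block, 3532, 3628 and 3398 genes were called in AbfA, BglC and 1542, and no count of the set moved by more than 1. The pairing by number was not used, since same-numbered libraries of a recombinant strain and A773 did not deviate together. The rule kept 150 to 179 genes with 1 library left out, of which 145 to 167 were among the 167, and 54 with a smallest change of 1. It kept 147 after scaling, 144 of them among the 167, and 217 and 113 with pseudocounts of 0.1 and 5. For 37 called differences of named genes, each taken under the planned settings, 40 of 1258 values lost their call and none reversed; 28 of the 40 came from left-out libraries. The calls lost outside the left-out libraries were AN3246 in AbfA with voom (adjusted p = 0.0531), AN3310 in BglC in a fit of 12 libraries (0.0555) and with voom (0.107), and AN11979 in BglC with a pseudocount of 0.1 (0.124) and with voom (0.567), and in AbfA AN8308 with voom (0.128), and AN8366 and AN11702 with a pseudocount of 5, in a fit of 12 libraries and with voom (0.0668 to 0.0996); the cause was not tested. The zrfC difference in 1542 was 0.86 with a pseudocount of 5 and 2.56 with voom. Averaging the same-numbered libraries over both times called 3189, 3132 and 3043 genes in AbfA, BglC and 1542. In BglC 39 of the 167 genes were then higher and 21 lower. Same-numbered BglC libraries deviated together over the times (0.154 to 0.589). The main fit took them as independent, so its BglC adjusted p-values may be too small. Among low genes, AN3228 had no read in 3 of the 6 A773 libraries, and the part of depth in this was not tested.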
